A study of Mus musculus with 6 samples.

Results

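Pdia5 and 9 other genes of protein folding and folding stress in the endoplasmic reticulum (ER) were examined in mouse retinae that lacked Rb1 and p107, with or without Hells. The members were the rows of the deposited count table for Pdia3, Pdia4, Pdia5, Pdia6, Hspa5, Atf4, Ddit3, Xbp1, Atf6 and Ern1, 10 of 24062 genes, and each of the 10 was counted well enough to be kept when genes with a sum under 10 were removed. The members were listed by name and selected on values of the comparison described here, the fold changes and calls of TKO against DKO, which were known when the list was made. The differences of the 10 members are therefore given as a description. Their calls in the fit over all genes are counted once, beside the share of all genes called, and are not evidence for the choice.

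RNA was sequenced from whole retinae at postnatal day 21 in 2 groups of 3, from mice labelled C57BL/6, which the study's methods give as C57BL/6N. The Rb1/p107/Hells retinae (TKO) carried floxed Rb1 and floxed Hells alleles deleted by Chx10-Cre, on a p107-null background, and the Rb1/p107 retinae (DKO) carried Chx10-Cre with floxed Rb1 on the same p107-null background. Loss of p107 is thus shared by every cell of both groups, whereas Chx10-Cre acts in retinal progenitors in a mosaic pattern, so that each retina also holds cells that kept Rb1 and Hells. The libraries held 10343907 to 14203098 counts on genes. Hells had 60.8, 68.4 and 83.4 normalized counts (counts divided by the scaled size of the library relative to the mean) in TKO and 678, 523 and 395 in DKO replicates 1, 2 and 3, lower in each TKO library (log2 fold change -2.91, standard error 0.225, adjusted p = 0.00359 from edgeR). Rb1, which Chx10-Cre deletes in part of the cells of both groups, had 814, 746 and 682 normalized counts in TKO and 617, 583 and 572 in DKO replicates 1, 2 and 3. It was higher in each TKO retina (log2 fold change 0.34, standard error 0.0912, adjusted p = 0.0388 from edgeR), and whether the share of recombined cells differed between the groups was not tested. The summed counts of the lens markers were higher in each TKO than in each DKO retina and highest in TKO replicate 2. Single lens markers did not all share this, as given with the cell markers. The 9 rod markers were detected in every retina. The labels name 3 samples a group and do not say whether retinae of a group came from separate animals. The SDs therefore measure the spread between these samples, which need not be a spread between animals. The standard errors come from the edgeR fit, which also shares information on spread between genes.

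Secreted and membrane proteins fold in the ER, where protein disulfide isomerases such as the Pdia family form and rearrange disulfide bonds and the chaperone BiP, encoded by Hspa5, holds unfolded chains. Unfolded proteins are sensed by IRE1 (Ern1), ATF6 and PERK, which act through the transcription factors XBP1, cleaved ATF6 and ATF4 to raise chaperones and degradation, and, when stress lasts, CHOP (Ddit3). Photoreceptors make large amounts of rhodopsin, a disulfide-bonded membrane protein, and loss of ATF6 in people causes a cone disorder. PDIA5 has been described as an isomerase that acts on the disulfide bonds of ATF6 itself.

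Pdia5 was the member that differed most between the genotypes. It is encoded on the minus strand of chromosome 16 (35397312 to 35490873, with positions in the GRCm38 build here and for the other genes). Its normalized counts were 500.0, 476 and 376 in TKO and 158, 171 and 169 in DKO replicates 1, 2 and 3. The lowest TKO retina was thus above the highest DKO retina, with TKO replicate 3 nearest to the DKO range and the 3 DKO retinae close together. The TKO mean was 450.4 ± 66.0 and the DKO mean 166 ± 6.89 (SD, n = 3 each). The log2 fold change was thus 1.44 (standard error 0.134), or 2.71-fold. Of all 16904 genes tested, 1.74% had a higher log2 fold change. The libraries held 168 to 452 reads of Pdia5 each.

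The other 3 Pdia genes did not share the size of this difference. Pdia4, which encodes ERp72 (chromosome 6, 47796141 to 47813430, minus strand), had 1080.2, 949 and 941 normalized counts in TKO and 804, 868 and 809 in DKO replicates 1, 2 and 3. Its groups did not overlap, with a log2 fold change of 0.26 (standard error 0.0851). Pdia3, which encodes ERp57, the isomerase that works on glycoproteins with calreticulin and calnexin (chromosome 2, 121413775 to 121438687, plus strand), had 3423, 3216 and 3931 normalized counts in TKO and 4181, 4293 and 3667 in DKO replicates 1, 2 and 3. TKO replicate 3 lay above DKO replicate 3, so the groups overlapped, and the log2 fold change was -0.20 (standard error 0.106). Pdia6, whose product P5 also dampens IRE1 and PERK signalling (chromosome 12, 17266545 to 17284770, plus strand), had 1588, 1486 and 2000.3 normalized counts in TKO and 1874, 1895 and 1847 in DKO replicates 1, 2 and 3. Here TKO replicate 3 was above every DKO retina and the other 2 TKO retinae were below them (log2 fold change -0.15, standard error 0.113). Because the 4 genes differ in length, their share of one another was computed on counts per length: Pdia5 made up 7.63 ± 1.54% of the 4 genes in TKO and 2.74 ± 0.206% in DKO (SD, 3 retinae each), from 5.86% to 8.63% in TKO and from 2.56% to 2.97% in DKO retinae.

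Hspa5 (chromosome 2, 34771970 to 34777547, plus strand), the gene most often read as a measure of ER stress, had 6057, 5848 and 7064 normalized counts in TKO and 5597, 5750.2 and 5100.1 in DKO replicates 1, 2 and 3. The groups did not overlap, but TKO replicate 2 and DKO replicate 2 were less than the SD of either group apart. The log2 fold change was 0.21 (standard error 0.105), and 25.7% of the genes tested had a higher one.

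The sensor genes Atf6 and Ern1 were both higher in each TKO than in each DKO retina. Atf6, whose product is cut in the Golgi apparatus to free a transcription factor (chromosome 1, 170704674 to 170867771, minus strand), had 1847, 1865 and 1814 normalized counts in TKO and 1384, 1316 and 1625 in DKO replicates 1, 2 and 3, a log2 fold change of 0.35 (standard error 0.0926). Ern1, which encodes the kinase and nuclease IRE1 (chromosome 11, 106394650 to 106487852, minus strand), had 350, 308 and 256 normalized counts in TKO and 186, 154 and 237 in DKO replicates 1, 2 and 3, a log2 fold change of 0.66 (standard error 0.184). In both genes DKO replicate 3 was the highest of its group, and for Ern1 it came close to TKO replicate 3.

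The transcription factors of the pathway moved by similar amounts. Xbp1 (chromosome 11, 5520659 to 5525893, plus strand) had 1554, 1504 and 1621 normalized counts in TKO and 1098, 1172 and 1213 in DKO replicates 1, 2 and 3, a log2 fold change of 0.43 (standard error 0.0752). Its retinae were the least scattered of the members (pooled SD 0.0642 on the log2 scale). Counts on the gene do not separate the form of the mRNA that IRE1 has spliced from the unspliced form. Atf4, whose protein is set mainly by translation rather than by mRNA level (chromosome 15, 80255184 to 80257541, plus strand), had 4003, 3877 and 3289 normalized counts in TKO and 2447, 2671 and 3178 in DKO replicates 1, 2 and 3 (log2 fold change 0.43, standard error 0.121), and the replicates numbered 3 of the groups nearly met. Ddit3, which encodes the pro-apoptotic factor CHOP (chromosome 10, 127290774 to 127296288, plus strand), had 656, 785 and 725 normalized counts in TKO and 506, 498 and 561 in DKO replicates 1, 2 and 3, with no overlap (log2 fold change 0.47, standard error 0.0979). Exons of Ddit3, Pdia3 and Pdia6 share bases with genes on the opposite strand (Mars, Catsper2 and Atp6v1c2), and whether counting used strand is not given in the sources used here.

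**Figure D1:**
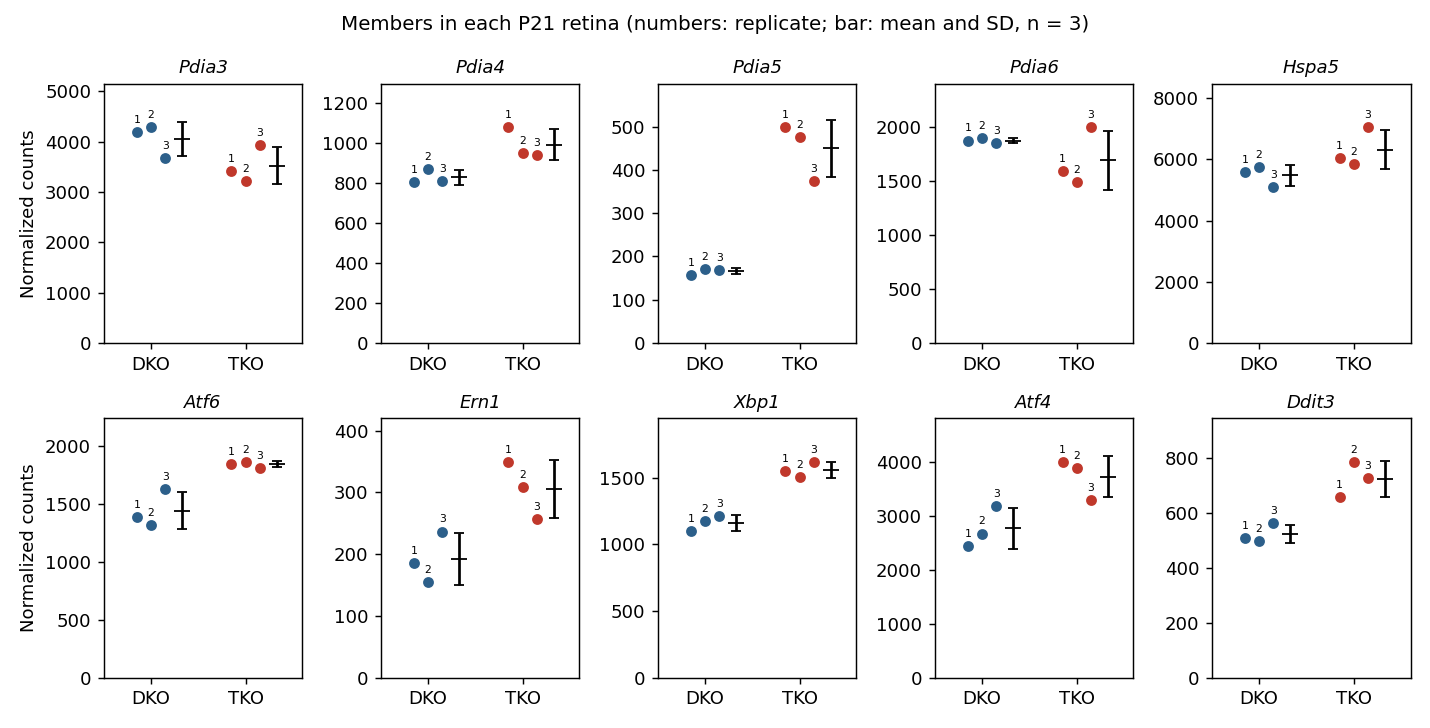
Normalized counts (linear axes from 0, a separate scale for each gene) of the 10 members in DKO (blue) and TKO (red) retinae, with each point a retina labelled by its replicate number and bars for mean and SD. Pdia5 lies between 376 and 500.0 in TKO and between 158 and 171 in DKO retinae, Pdia3 and Pdia6 overlap between the groups, and the other members separate by smaller margins.

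In all, 8 of the 10 members had each TKO retina above each DKO retina, where 18.0% of the genes tested did. At a threshold of 0.05 on the adjusted p of edgeR, 6 members (Pdia5, Atf4, Ddit3, Xbp1, Atf6 and Ern1) were called higher, where 7.35% of the genes tested were, and none was called lower. Atf4 was the last member inside the threshold and Pdia4 the first outside it. When the absolute log2 difference also had to reach 1, and the mean over the retinae 10 normalized counts, Pdia5 alone was called, where 1.97% of the genes tested were called higher and 6.35% in either direction. The members were chosen with this contrast known, so nothing is read from these counts. The median log2 fold change was 0.39 over the members and -0.011 over the genes tested. The count of 6 fell to 3 without TKO replicate 1, to 2 without TKO replicate 2 or DKO replicate 1 and to 1 without DKO replicate 2. Scaling to total counts alone shifted the median of the genes tested from -0.011 to -0.17. On that scale 1 member (Pdia5) was called, and the signs of the 10 fitted log2 fold changes did not change.

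Levels were compared between genes as counts per kilobase of exon and per 1000000 counts of the scaled library. Over the 6 retinae Hspa5 had the highest level (110), followed by Atf4 (109) and Pdia3 (95.3). These 3 overlapped in range, and the step to Pdia6 (37.6) was larger than the spread over retinae. Pdia6, Xbp1 (33.1), Pdia4 (29.9) and Ddit3 (28.7) also overlapped as neighbours. Atf6 (14.1) lay below them and overlapped with Pdia5 (8.79), since the level of Pdia5 was 12.9 ± 1.88 in TKO but 4.74 ± 0.197 in DKO (SD, 3 retinae each). Ern1 (2.40) was lowest, without overlap with Pdia5. Pdia5 was thus a minor isomerase transcript in both genotypes, below Pdia3, Pdia4 and Pdia6 in each retina.

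**Figure D2:**
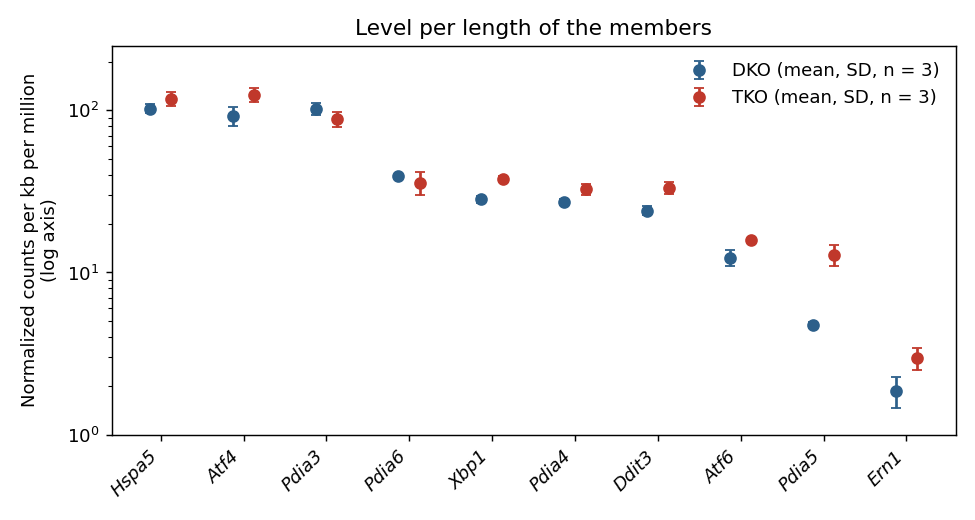
Mean level of each member in DKO (blue) and TKO (red) retinae per kilobase of exon and 1000000 counts on a log axis, with SD as error bars and genes in order of their level over the 6 retinae. The levels run from 110 for Hspa5 to 2.40 for Ern1, and the widest gap between the groups is at Pdia5, with 12.9 in TKO and 4.74 in DKO retinae.

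The promoters of the members were read from RefSeq (GRCm38.p6; 9 of the 10 matched, Atf6 being the other), since the ER stress element bound by ATF6 with NF-Y marks the classical targets of this pathway. The element, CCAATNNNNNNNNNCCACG, was searched on both strands from 250 bases before to 50 after the start, and 39 of 32851 promoters (0.119%) hold it. Among the members it was found in Hspa5 and in Pdia6. In Pdia5 only the CCACG end of the element was found, on the opposite strand and 7 bases before the start, and 32.8% of promoters hold those 5 letters. The 3 promoters are shown to set the gene that differed most beside the classical targets, from 250 bases before the start up to it, 5′ to 3′ on the strand of the gene. Capitals mark the whole element in Hspa5 and Pdia6 and the CCACG letters, as CGTGG, in Pdia5.
Pdia5, chr16:35490874-35491123, minus strand: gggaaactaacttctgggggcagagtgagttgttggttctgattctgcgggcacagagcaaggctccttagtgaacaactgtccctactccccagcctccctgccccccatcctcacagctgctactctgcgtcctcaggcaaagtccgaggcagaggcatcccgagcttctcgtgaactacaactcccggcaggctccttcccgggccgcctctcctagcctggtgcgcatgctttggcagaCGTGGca
Hspa5, chr2:34771840-34772089, plus strand: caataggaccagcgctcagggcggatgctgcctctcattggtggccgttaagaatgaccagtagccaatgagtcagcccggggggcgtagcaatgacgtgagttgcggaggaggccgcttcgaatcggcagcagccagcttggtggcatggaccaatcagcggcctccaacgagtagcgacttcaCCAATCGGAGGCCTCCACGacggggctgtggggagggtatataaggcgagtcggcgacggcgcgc
Pdia6, chr12:17266339-17266588, plus strand: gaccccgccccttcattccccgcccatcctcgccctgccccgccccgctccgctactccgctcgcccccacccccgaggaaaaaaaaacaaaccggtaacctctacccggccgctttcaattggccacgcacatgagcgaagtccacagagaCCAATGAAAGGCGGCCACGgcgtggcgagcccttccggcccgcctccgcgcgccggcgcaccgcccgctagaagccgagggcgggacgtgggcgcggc

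The other elements of the pathway were not found in the 9 windows. These were the second ER stress element, known as ERSE-II (0.0365% of promoters), the XBP1 and ATF6 element TGACGTGG (0.676%) and the C/EBP-ATF element TGATGNAA (3.97%). No match says only that these letters are not in this window. Beyond the members, 7 of the 108 pathway genes with a promoter in the table (Hsp90b1, Calr, Canx, Dnajc3, Creld2, Syvn1 and Derl3) hold the first element. Their log2 fold changes ran from -0.21 to 0.20 with a median of 0.13, and Hspa5 and Pdia6 lay at 0.21 and -0.15. None of the 7 passed the test, where 16.6% of the genes tested did, and nothing is read from so few genes. Pdia5, with 1.44, had no whole element in this window. Whether the element bears on any of these differences was not tested.

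The other genes of ER folding were taken from 6 lists that hold 136 genes, of which 134 were kept and tested with edgeR, with p adjusted over 16904 genes. Of the 134, 4 rose and 14 fell in TKO retinae, 13.4% in either direction against 16.6% of the genes tested, and their median log2 fold change was -0.00086. The corresponding shares over all genes were 7.35% higher and 9.20% lower. With total counts only, 0 rose and 22 fell, and over all genes 778 rose and 2610 fell in place of 1243 and 1556.

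None of the 23 chaperones and enzymes of glycoprotein folding passed the test with edgeR or DESeq2, although 1 was lower in edgeR with total counts only or without TKO replicate 3. At an unadjusted p under 0.05 from edgeR 3 were higher and 2 lower. The share of all genes under this unadjusted threshold is not given, so nothing is read from such counts here or below. The median log2 fold change was 0.096, and -0.061 with total counts only. Calr and Hsp90b1, which encode calreticulin and GRP94 and had the largest levels per length of the list, had log2 fold changes of 0.096 (standard error 0.0875) and 0.13 (standard error 0.0920), and their groups overlapped.

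Disulfide formation outside the 10 members was represented by 21 genes, 19 of them tested, of which 1 rose and 3 fell (median log2 fold change -0.096). Prdx4, a peroxiredoxin that uses peroxide to drive disulfide formation in the ER, averaged 192 ± 50.9 normalized counts in TKO against 481 ± 53.4 in DKO (SD, n = 3 each). Its log2 difference was -1.33 (standard error 0.185, adjusted p = 0.00691 from edgeR). Gpx7, an ER peroxidase, fell by 0.98 on the log2 scale (adjusted p = 0.0296 from edgeR). The third, Gpx8, is a related peroxidase that the naming rule did not select and was named after its value was seen (log2 fold change -0.56, adjusted p = 0.0431 from edgeR). The oxidases Ero1l and Ero1lb did not pass. P4hb, the classical protein disulfide isomerase, differed by -0.12 on the log2 scale (adjusted p = 0.285 from edgeR), although it passed as lower with total counts only (0.0429). Tmx1, a membrane-bound isomerase, rose by 0.35 (adjusted p = 0.0222 from edgeR), and Tmx2, which had the largest level of the list, had 0.13 (adjusted p = 0.293 from edgeR). Prdx4 passed with any 1 retina left out, whereas Tmx1, Gpx7 and Gpx8 no longer did without TKO replicate 1, TKO replicate 2, DKO replicate 1 or DKO replicate 2.

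Of 23 genes of ER-associated degradation, 2 rose and none fell with edgeR. At an unadjusted p under 0.05 from edgeR 8 were higher and none lower, without a share of all genes to set beside this. DESeq2 called 3 higher and none lower. Edem3, which trims mannose from misfolded glycoproteins, was 0.34 higher on the log2 scale (adjusted p = 0.0438 from edgeR), and the ubiquitin ligase Rnf5 had 0.33 (adjusted p = 0.0416 from edgeR). Both lost the call without TKO replicate 1, TKO replicate 2, DKO replicate 1 or DKO replicate 2. The ATPase Vcp and the lectin Os9, with the largest levels of the list, had 0.058 and 0.28 and did not pass. Os9 did pass without DKO replicate 3 (adjusted p = 0.0199 from edgeR). The median of the list was 0.14, and -0.021 with total counts only.

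Among 16 further genes of sensing and signalling, 2 fell and none rose with edgeR or with DESeq2, and at an unadjusted p under 0.05 from edgeR 2 were lower and none higher. Eif2ak2, which encodes PKR, an eIF2α kinase that is switched on by double-stranded RNA and induced by interferon, averaged 104 ± 4.14 normalized counts in TKO against 336 ± 68.5 in DKO (SD, n = 3 each). Its log2 difference of -1.69 (standard error 0.169, adjusted p = 0.00464 from edgeR) passed under each of the 13 alternatives. Creb3l1, an ER-anchored factor processed like ATF6, had -1.05 (adjusted p = 0.0380 from edgeR) and lost the call when any 1 of the 6 retinae was left out. The PERK gene Eif2ak3, which is no member but is the kinase upstream of Atf4, had 858 ± 41.1 and 785 ± 40.4 normalized counts in TKO and DKO retinae (log2 fold change 0.13, adjusted p = 0.302 from edgeR). Rtcb, the ligase that joins spliced Xbp1, and Atf6b had the largest levels of the list, with log2 fold changes of 0.0041 and 0.20, and neither passed.

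Of 31 targets of ATF4 and CHOP, 6 fell and none rose with edgeR, 8 fell and none rose with DESeq2, and at an unadjusted p under 0.05 from edgeR 8 were lower and 1 higher. Phgdh and Psat1, enzymes of serine synthesis, had log2 fold changes of -0.93 and -0.88 (adjusted p = 0.0337 and 0.0132 from edgeR). The other 4 were named after their values were seen, namely Mthfd2 (-0.78) and Shmt2 (-0.41), which are enzymes of mitochondrial one-carbon metabolism, and the transcription factors Atf5 (-0.70) and Cebpg (-0.46). Growing and dividing cells also use serine and one-carbon enzymes, and the 10 markers of dividing cells summed to 600 to 2299 normalized counts in TKO and 5731 to 12152 in DKO retinae. The part of these cells in the fall of the list was not tested. Each of the 6 calls was lost without TKO replicate 2, DKO replicate 1 or DKO replicate 2. The tRNA synthetases Gars and Sars, with the largest levels of the list, had 0.091 and 0.13 and did not pass. Trib3 and Ppp1r15a, which CHOP and ATF4 are known to raise in stress, had 0.14 and 0.10 (adjusted p = 0.759 and 0.583 from edgeR). Atf3 and Chac1, also in the list, had -0.20 and -0.19 (adjusted p = 0.739 and 0.687 from edgeR). Ddit4 was the 1 gene higher at the unadjusted threshold (0.49, adjusted p = 0.0990 from edgeR). These genes were looked up after the list had been seen. Over the list, 11 fitted values were above 0 and 20 below.

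Of 22 genes of the translocon, signal peptidase and export from the ER, 1 rose and 3 fell. Sec24d, a coat protein of export vesicles, fell by 0.60 on the log2 scale (adjusted p = 0.0225 from edgeR), and Kdelr2, a receptor that returns ER residents, fell by 0.57 (adjusted p = 0.0134 from edgeR). Spcs3, a signal peptidase subunit named after its value was seen, had -0.54 (adjusted p = 0.0116 from edgeR), and Mcfd2, a cargo receptor subunit, had 0.40 (adjusted p = 0.0336 from edgeR). Sec24d and Mcfd2 lost the call without TKO replicate 1, TKO replicate 2, DKO replicate 1 or DKO replicate 2, Kdelr2 without DKO replicate 1 or 2, and Spcs3 without TKO replicate 2 or DKO replicate 2. Sec62 and Ssr2, with the largest levels, had 0.24 and 0.11 and did not pass.

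**Figure D3:**
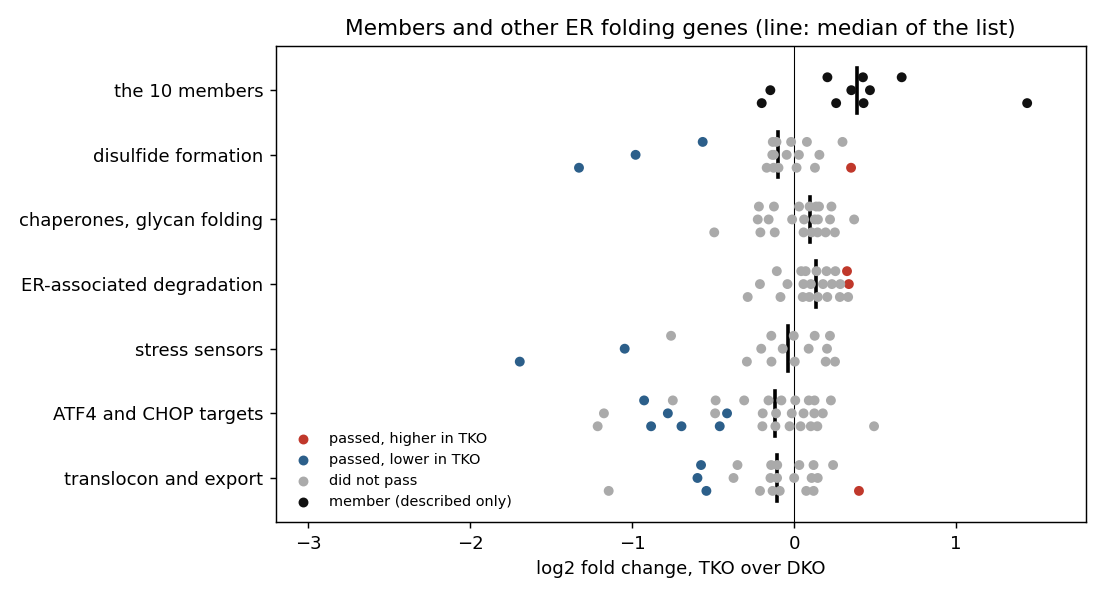
Log2 fold change, TKO over DKO, of the 10 members (black, described only) and of the tested genes of 6 lists of ER folding, with genes that passed in red (higher) or blue (lower), the others in grey and a line at the median of each list. The median of the members lies at 0.39 and the medians of the lists between -0.12 and 0.14, and no chaperone passed.

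The marker RNA of several cell types differed between the genotypes, and in whole tissue fewer cells of a type and less RNA per cell cannot be told apart. All 9 rod markers rose in TKO retinae (log2 fold change 1.58 to 2.08), and all 10 markers of dividing cells fell (-3.21 to -2.29). Of the other lists, 2 of 9 cone, 1 of 6 bipolar, 1 of 8 RPE, 5 of 9 lens and 1 of 8 endothelial markers rose and none fell, 7 of 10 microglial markers fell and none rose, and 4 of 8 Muller glia markers rose and 1 fell. Of the amacrine, horizontal and ganglion cell markers (7, 3 and 8 genes) none passed with edgeR. DESeq2 called 2, 1 and 0 of them, all lower, and at an unadjusted p under 0.05 from edgeR 2 amacrine and 2 horizontal markers were lower and 1 ganglion cell marker was higher. Among the 4 plasma cell markers tested, 1 rose and 1 fell, and the summed counts of that list overlapped between the groups. No marker was at 0 in all 6 retinae.

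Pdia5 was set beside the rod markers, which differed in the same direction. The rod markers summed to 713971, 610476 and 351731 normalized counts in TKO and to 123853, 120280 and 229156 in DKO replicates 1, 2 and 3. TKO replicate 3 was lowest of its group in both measures. DKO replicate 3 had more rod marker counts than the other 2 DKO retinae. Pdia5 had 158, 171 and 169 normalized counts in DKO replicates 1, 2 and 3. The last 2 rest on 195 and 196 reads and are too close to be ordered. Per 1000 rod marker counts, Pdia5 had 0.700, 0.779 and 1.07 normalized counts in TKO and 1.28, 1.42 and 0.738 in DKO replicates 1, 2 and 3, so that the groups overlapped on this scale. The part of rods in the level of Pdia5 was not tested. The summed lens markers also differed in the same direction. They had 647, 3610.1 and 560 normalized counts in TKO and 116, 118 and 111 in DKO replicates 1, 2 and 3. By this sum each TKO retina was above each DKO retina. Of the 9 lens markers, 5 (all crystallins) separated in this way, whereas Bfsp1, Bfsp2, Mip and Lim2 overlapped between the groups. Mip, for example, had 19.5, 62.1 and 23.3 normalized counts in TKO and 26.4, 23.6 and 25.9 in DKO replicates 1, 2 and 3. Each of the 9 lens markers was highest in TKO replicate 2. Without TKO replicate 2 the log2 fold change of Pdia5 was 1.40. The other 2 TKO retinae had a higher lens marker sum than the DKO retinae. In these 2 retinae Bfsp1 (20.6 and 28.2), Bfsp2 (12.6 and 25.8) and Mip were not above the highest DKO retina. The part of lens cells in the level of Pdia5 was not tested. Summed Muller glia markers were also higher in each TKO than in each DKO retina. They had 73888, 76891 and 77392 normalized counts in TKO and 62162, 66402 and 67533 in DKO replicates 1, 2 and 3. Of these 8 markers, 4 had each TKO retina above each DKO retina, 1 had each below, and the others overlapped. The part of Muller glia in the level of Pdia5 was not tested.

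**Figure D4:**
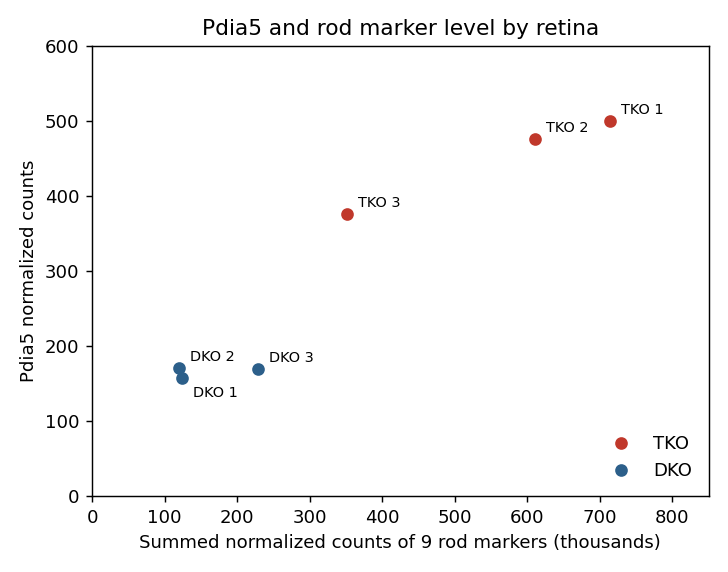
Pdia5 normalized counts (vertical axis) against the summed normalized counts of 9 rod markers (horizontal axis, in units of 1000), each point 1 retina labelled by group and replicate. TKO retinae lie at 376 to 500.0 and DKO retinae at 158 to 171 on the vertical axis, and DKO replicate 3 lies to the right of the other DKO retinae at the same height.

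The genes whose level over the 6 retinae lay nearest to that of Pdia5 were LOC100862268, Ebpl, Arl4d, 0610038B21Rik and D430042O09Rik, by the root mean square difference of log2 CPM after each gene was centred on its mean, over 14975 genes. These differences ran from 0.0997 for LOC100862268 to 0.144 for D430042O09Rik. Arl4d, which encodes a small GTPase of the ARF family, had 1461, 1314 and 923 normalized counts in TKO and 396, 427 and 540.5 in DKO replicates 1, 2 and 3. Ebpl, which resembles a sterol isomerase in sequence, had 1092, 894 and 668 in TKO and 320.0, 332 and 392 in DKO replicates 1, 2 and 3. In both genes DKO replicate 3 was the highest DKO retina. For Pdia5, DKO replicates 2 and 3 (171 and 169 normalized counts) were too close to be ordered. None of the other 9 members was among the nearest genes: Ern1 came closest, with a difference of 0.42 and 664 genes nearer, and Pdia3 was farthest, at 0.84.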

How the data were processed

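Total RNA of 6 retinae was made into stranded mRNA libraries (TruSeq) and sequenced as read pairs. The authors deposited raw counts per gene symbol, without normalization. The paper's methods name STAR and HTSeq on GRCm38 with up to 3 alignments per read, whereas the submitters' processing notes name TopHat2 and featureCounts, and the table does not tell which was used, so genes with near-identical copies or overlapping exons are less certain. Genes with a summed count under 10 were removed (16904 kept). Groups and replicate numbers came from sample titles. TKO was compared with DKO by edgeR 4.0.16 in R 4.3.3 (TMM, quasi-likelihood F test, Benjamini-Hochberg, threshold 0.05). Standard errors were derived from the F statistic, as the size of the fitted log2 difference over its square root. Mean counts for the minimum of 10 used DESeq2 1.42.0 size factors, and the same tool was an alternative. The fit was tested on simulated data. Exon lengths and positions came from GENCODE M21 (GRCm38), promoters from RefSeq.

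The members and lists were chosen with earlier results of these data known. Genes named were the members, Hells, the 2 highest and 2 lowest genes past the test and the 2 with the largest level per length of each pathway list, and the 5 nearest to Pdia5. Rb1 and Rbl1 were also in this rule, and Rbl1, which encodes p107, had a log2 fold change of 0.13 with overlapping groups. The alternatives were other scalings, filters, robust dispersions, DESeq2, a replicate block, each retina left out and added criteria. Symbols not in the annotation (5 list genes) were matched through RefSeq synonyms.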

Additional observations from a re-analysis of the deposited data

How the results depend on the processing

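The 10 members kept the sign of their log2 fold change under the 13 alternatives. With 1 retina left out Pdia5 ran from 1.36 to 1.56 and Hspa5 from 0.12 to 0.26. With total counts only, which lowers the fitted values of all genes, Pdia5 had 1.28, Pdia4 0.099, Hspa5 0.051, Ddit3 0.31, Xbp1 0.27, Atf6 0.20 and Pdia3 -0.36. The 6 members called became 1 with total counts only, 1 with the replicate block and 1 with the added criteria, and 1 to 6 with 1 retina left out. The pathway genes that rose (4) became 0 with total counts only, 0 with the replicate block and 0 to 7 with 1 retina left out (7 without DKO replicate 3). Those that fell (14) became 22 with total counts only, 1 with the replicate block and 2 to 19 with 1 retina left out (6 and 3 on leaving out TKO replicates 1 and 2, 3 and 2 on leaving out DKO replicates 1 and 2). The causes were not tested. The genes called (2799) became 106 with the replicate block, 1074 with the added criteria and 647 to 3590 with 1 retina left out: 1307 and 712 on leaving out TKO replicates 1 and 2, and 811 and 647 on leaving out DKO replicates 1 and 2. Same-numbered retinae deviated from their group means with correlations of 0.046, -0.044 and -0.14 over genes. Differently numbered retinae were not compared, so these values cannot decide whether the replicate numbers are a pairing. With the other alternatives (DESeq2, the size-factor scaling, 2 filters and robust dispersions) these counts stayed within 1.5 times. Each library held 5282 to 6568 reads of Hspa5 and 767 to 992 of Pdia4. Pairs of replicates had a chi-square of 8.61 to 25.3 per degree of freedom over genes, beyond counting error. This value is a total over genes and was not computed for single members. The close Pdia5 values of DKO replicates 1, 2 and 3 rest on 168, 195 and 196 reads, where counting error also matters.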
